A study of Mus musculus with 24 samples.

Results

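The transcripts of 7 genes of the Ras, Raf, MEK and ERK cascade were followed while mouse embryonic stem cells (mESCs) lost an inhibitor. This was a MEK inhibitor, which acts on that cascade, or, in a separate experiment, a GSK3 inhibitor. The genes were those rows of both deposited count files whose symbol was *Nras*, *Hras*, *Araf*, *Braf*, *Map2k1*, *Map2k2* or *Mapk3*, which made 7 of 35022 genes in the file of PD03 removal and 7 of 48709 genes in the file of CHIRON removal. They lie on GRCm38 at chr3:103058285-103067914 (*Nras*, plus strand), chr7:141189105-141194005 (*Hras*, minus), chrX:20797814-20860519 (*Araf*, plus), chr6:39603237-39725463 (*Braf*, minus), chr9:64185770-64253631 (*Map2k1*, minus), chr10:81105915-81133975 (*Map2k2*, plus) and chr7:126759601-126765819 (*Mapk3*, plus). Each symbol had 1 row in each file, and other Ras family genes and kinases are counted as lists after the 7 genes. The question was whether the RNA of the cascade itself adjusts once MEK is no longer inhibited, and whether a soft or a stiff substrate matters for it.

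E14 mESCs, 1 line labelled 129m wt, were grown for 12 h on soft or stiff fibronectin-coated StemBond hydrogels in 2i + LIF. This medium held the MEK inhibitor PD03 at 1 µM, the GSK3 inhibitor CHIRON at 3 µM and the cytokine LIF, and LIF was kept in every group at every time. In PD03 removal the 6 groups were soft and stiff at 0 h (2i + LIF) and at 2 h and 12 h in CHIRON + LIF, and in CHIRON removal they were soft and stiff at 0 h (2i + LIF) and at 2 h and 12 h in PD03 + LIF. Each group had 2 libraries, 24 in all, and each removal had its own 0 h libraries. No library was kept in 2i + LIF beyond 0 h, so loss of the inhibitor and further time on the substrate cannot be told apart within 1 removal. The labels do not say whether the libraries of a group came from separate cultures, so p-values measure the spread between these libraries, which may be technical.

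The library of CHIRON removal on stiff substrates at 2 h numbered replicate 1 held 171333 counts, against 16222196 to 31111260 in the other 23, and was left out, so that this group had 1 library. The study discarded that library as well. The 7 genes had between 187 and 4494 counts per library in the libraries used. All 8 markers of embryonic stem cells were detected in every group, with a summed level of 4173 to 5729 CPM (counts scaled to a common library size). In PD03 removal this sum was 5644 to 5729 CPM at 0 h and 4479 to 4840 CPM at 12 h, and the share of counts on protein-coding genes was 76.8% to 77.5% at 0 h and 73.1% to 74.6% at 12 h. Markers of primitive endoderm summed to 1.74 to 6.57 CPM, of trophectoderm to 11.8 to 29.1 CPM, of mesoderm to 0.558 to 27.5 CPM, of the neural lineage to 5.26 to 24.9 CPM and of fibroblasts to 0.794 to 5.79 CPM. In PD03 removal the 3 mesoderm markers summed to between 8.17 and 10.7 CPM at 0 h and between 22.9 and 27.5 CPM at 12 h, with *Mesp1* and *Tbx6* below 0.5 CPM throughout and the rest from *T*. The 4 trophectoderm markers summed to 13.96 to 16.5 CPM at 0 h and 25.2 to 29.1 CPM at 12 h, whereas *Elf5* and *Gata3* stayed below 0.5 CPM. In CHIRON removal the mesoderm sum went from between 6.42 and 7.85 CPM at 0 h to between 0.558 and 0.928 CPM at 12 h, and the neural sum from between 10.97 and 14.2 to between 22.97 and 24.9 CPM. The part of these shifts in the results that follow was not tested, and in bulk RNA fewer cells of a type and less RNA per cell cannot be told apart.

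Ras proteins are small GTPases at the plasma membrane that are switched on by exchange factors downstream of growth factor receptors and switched off by GTPase-activating proteins. GTP-bound Ras recruits and activates Raf kinases, which phosphorylate the MEK kinases, which in turn phosphorylate ERK, and ERK acts on kinases and transcription factors and induces its own inhibitors. In mESCs, ERK activity driven by autocrine FGF4 moves cells out of the naïve state, which is why a MEK inhibitor is part of 2i. The genes *Nras* and *Hras* encode Ras proteins, *Araf* and *Braf* Raf kinases, *Map2k1* and *Map2k2* the kinases MEK1 and MEK2, and *Mapk3* the kinase ERK1.

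Promoter sequences from RefSeq (GRCm38.p6) were matched by symbol for 6 of the 7 genes. The bases from 250 to 51 before the transcription start are printed for *Map2k1* and *Map2k2*, whose transcripts moved in opposite directions after PD03 removal, and for *Braf*, the gene with a change at 2 h. Each is written 5′ to 3′ along the gene. Capitals mark, on either strand, the letters TGACGT of a CREB/ATF element, CCGGAA of an ETS core and GGGCGG of a GC box. The *Map2k1* stretch is chr9:64253656-64253855 on the minus strand, that of *Map2k2* is chr10:81105665-81105864 on the plus strand and that of *Braf* is chr6:39725514-39725713 on the minus strand.
Map2k1: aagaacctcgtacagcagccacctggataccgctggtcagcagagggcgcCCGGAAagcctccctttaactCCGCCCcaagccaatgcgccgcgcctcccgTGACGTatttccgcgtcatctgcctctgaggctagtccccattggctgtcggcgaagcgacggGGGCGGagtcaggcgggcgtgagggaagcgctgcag
Map2k2: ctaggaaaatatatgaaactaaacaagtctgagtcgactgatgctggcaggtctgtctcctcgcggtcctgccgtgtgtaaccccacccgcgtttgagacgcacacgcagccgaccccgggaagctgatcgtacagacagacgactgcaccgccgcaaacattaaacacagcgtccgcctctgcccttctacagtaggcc
Braf: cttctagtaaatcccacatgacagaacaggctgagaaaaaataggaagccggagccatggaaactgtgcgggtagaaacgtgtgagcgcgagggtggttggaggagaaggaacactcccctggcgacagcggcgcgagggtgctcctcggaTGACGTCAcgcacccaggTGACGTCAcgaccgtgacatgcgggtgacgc
The *Map2k1* stretch held 1 CREB/ATF element, 1 ETS core and 2 GC boxes, the *Map2k2* stretch none of these, and the *Braf* stretch 2 copies of TGACGTCA, each of which reads as TGACGT on either strand. Among 32851 promoters in the table, 4.16% held TGACGT in the same 200 bases, 0.828% TGACGTCA, 8.03% CCGGAA and 24.6% GGGCGG. These motifs were chosen after the sequences were seen, and a match is a description of letters and not of a bound site.

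Levels between genes were compared per length, as CPM divided by the kilobases of merged exons (RPKM). At 0 h in PD03 removal the order was *Nras* (41.5 ± 0.258 RPKM, mean ± SD, n = 4), *Map2k1* (39.7 ± 1.03), *Map2k2* (21.7 ± 0.609), *Hras* (12.7 ± 0.778), *Araf* (10.9 ± 0.299), *Mapk3* (7.12 ± 0.245) and *Braf* (4.29 ± 0.165). No neighbours in this order overlapped over the 4 libraries, and *Mapk3* and *Braf* were the lowest of the 7. At 0 h in CHIRON removal, in the same medium, the order was *Mapk3* (33.6 ± 2.05 RPKM, n = 4), *Nras* (26.5 ± 0.761), *Map2k2* (20.9 ± 1.37), *Map2k1* (15.6 ± 1.40), *Araf* (11.5 ± 0.607), *Hras* (5.96 ± 0.328) and *Braf* (3.29 ± 0.404). Here too no neighbours overlapped.

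The genes whose 0 h level differed most between the 2 experiments were *Mapk3*, 5.57-fold lower in PD03 removal in a joint fit of both tables, and *Map2k1*, 2.15-fold higher there. Of the 14763 genes in both tables, 7.15% differed at least as far as *Mapk3* and 31.1% at least as far as *Map2k1*. *Hras* was 1.80-fold and *Nras* 1.32-fold higher in PD03 removal, and *Araf*, *Braf* and *Map2k2* differed by 1.25-fold or less. In the joint fit 78.8% of the 14763 genes passed between the experiments at 0 h (edgeR, adjusted p under 0.05). The study's methods name several library kits and do not say which served these libraries. The 2 experiments were separate sets of libraries, so experiment, library preparation and cells cannot be told apart. No test of these levels is given for the 7 genes. All changes below were therefore taken within 1 experiment.

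At 12 h after PD03 removal the RNA of the cascade had changed in both directions and by small amounts. With both substrates together, *Mapk3*, *Braf*, *Map2k2* and *Araf* rose, *Map2k1* fell, and *Nras* and *Hras* did not pass the test (edgeR quasi-likelihood test, Benjamini-Hochberg adjusted p under 0.05 over all genes tested). These 5 of 7 genes are to be read against 48.9% of the 13424 protein-coding genes tested that passed in the same comparison. The median absolute log2 fold change was 0.15 for the 7 genes and 0.19 for all genes tested, and the signed medians were 0.14 and -0.00. DESeq2 also called 5 of the 7.

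*Mapk3*, which encodes ERK1, the kinase at the end of the cascade, moved furthest. On soft substrates it was measured at 16.6 and 16.0 CPM at 0 h, 16.2 and 14.9 CPM at 2 h and 23.5 and 24.6 CPM at 12 h. On stiff substrates it was at 16.4 and 15.3 CPM at 0 h, 14.8 and 13.5 CPM at 2 h and 25.1 and 21.5 CPM at 12 h. All 4 libraries at 12 h lay above all 8 earlier libraries, and those at 2 h overlapped those at 0 h. At 12 h it rose by 0.56 ± 0.07 (SE) on the log2 scale with an adjusted p of 3.8e-07, and the change was 0.56 ± 0.10 on soft and 0.57 ± 0.11 on stiff substrates. From 2 h to 12 h it was 0.67 ± 0.08 (adjusted p = 3.6e-08), and at 2 h it was -0.11 ± 0.08 (adjusted p = 0.53).

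The MEK genes moved apart. *Map2k1* (MEK1) was at 131 and 136 CPM on soft and 139 and 132 CPM on stiff substrates at 0 h. It was at 119 and 136 CPM on soft and 137 and 131 CPM on stiff substrates at 2 h, and at 113 and 116 CPM on soft and 118 and 111 CPM on stiff substrates at 12 h. The 4 libraries at 12 h were below all others. It fell by 0.23 ± 0.04 on the log2 scale (adjusted p = 2.7e-05), with 2 h overlapping 0 h (-0.04 ± 0.04, adjusted p = 0.66).

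*Map2k2* (MEK2) was at 127 and 123 CPM on soft and 119 and 124 CPM on stiff substrates at 0 h. It was at 109.9 and 118 CPM on soft and 131 and 115 CPM on stiff substrates at 2 h, and at 135 and 142 CPM on soft and 139.6 and 131 CPM on stiff substrates at 12 h. The 12 h libraries lay above all 4 libraries at 0 h, whereas those at 2 h spread across them. The log2 fold change at 12 h was 0.15 ± 0.04 (adjusted p = 0.0032), and from 2 h to 12 h it was 0.21 ± 0.04 (adjusted p = 0.00017).

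Among the Raf kinases, *Braf* was the only one of the 7 genes called at 2 h. It was at 60.6 and 58.2 CPM on soft and 56.9 and 62.0 CPM on stiff substrates at 0 h, and at 73.5 and 68.4 CPM on soft and 64.1 and 70.8 CPM on stiff substrates at 2 h. At 12 h it was at 67.2 and 68.0 CPM on soft and 81.7 and 82.3 CPM on stiff substrates. All 8 libraries after removal lay above all 4 at 0 h, and at 12 h the stiff libraries lay above every other library. The log2 fold change was 0.22 ± 0.05 at 2 h (adjusted p = 0.0033) and 0.32 ± 0.05 at 12 h (adjusted p = 1.5e-06), while that from 2 h to 12 h was 0.11 ± 0.05 (adjusted p = 0.063). The exons of *Braf* share 146 bases with *Ndufb2* on the opposite strand, and without knowledge of whether counting used strand, reads of the latter in its count cannot be told apart. Those of *Araf* share 9 bases with *Syn1* in the same way.

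*Araf* ranged from 69.3 to 73.9 CPM at 0 h, from 69.2 to 78.7 CPM at 2 h and from 76.6 to 82.4 CPM at 12 h, the last without overlap with 0 h. Its log2 fold change at 12 h was 0.14 ± 0.04 (adjusted p = 0.0087). The Ras genes had no call against 0 h. *Nras* ranged from 220.1 to 223 CPM at 0 h, from 226 to 239 CPM at 2 h and from 210.0 to 227 CPM at 12 h, so that its 2 h libraries lay above those at 0 h without passing the test (0.07 ± 0.03, adjusted p = 0.23). From 2 h to 12 h *Nras* fell by 0.10 ± 0.03 on the log2 scale (adjusted p = 0.018), a call that was lost without any 1 of 4 libraries (soft 12 h replicate 2, soft 2 h replicate 1, stiff 12 h replicate 1 or stiff 2 h replicate 2; adjusted p from 0.052 to 0.12) and with all genes tested (adjusted p = 0.069). *Hras* ranged from 43.8 to 50.8 CPM over the 12 libraries and did not pass at 2 h (-0.09 ± 0.05) or at 12 h (-0.01 ± 0.05).

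**Figure D1:**
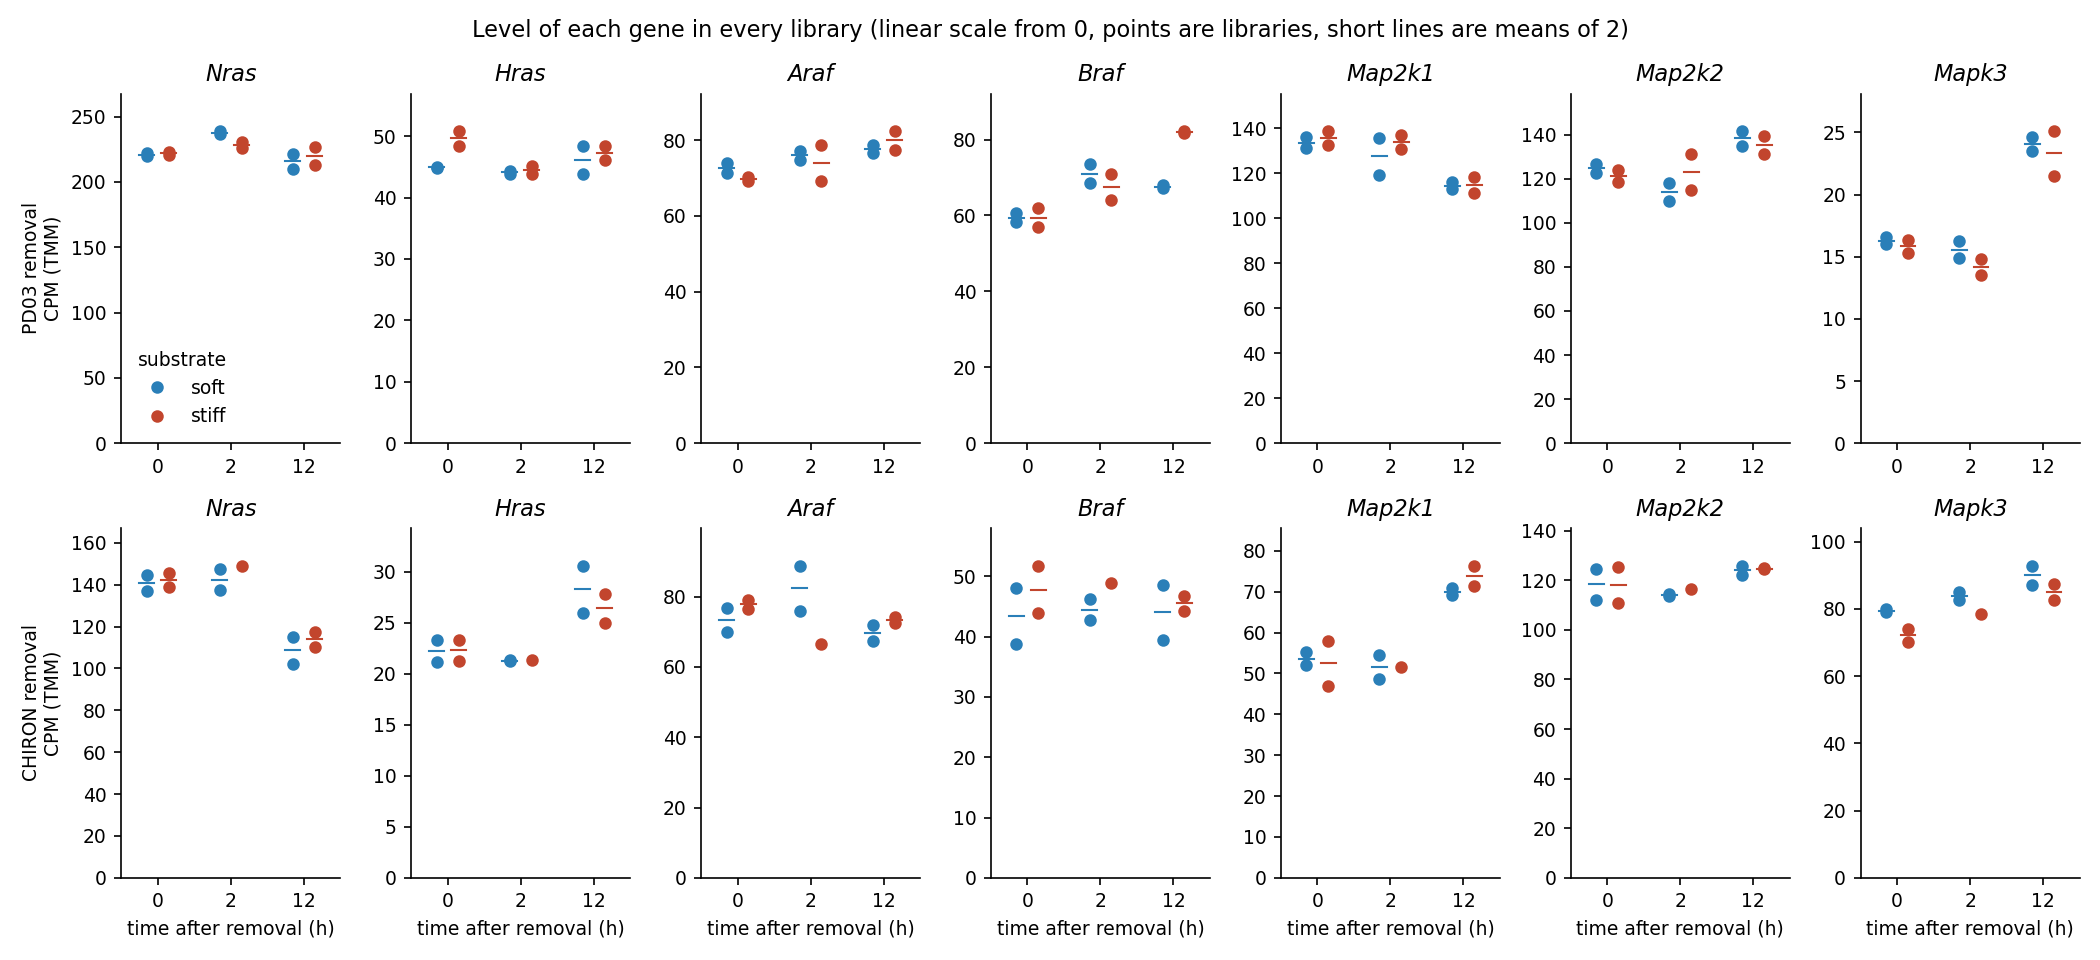
Level of each gene in CPM (linear axis from 0) against hours after removal of PD03 (upper row) or CHIRON (lower row). Each point is 1 library, blue on soft and red on stiff substrates, and a short line is the mean of 2. In PD03 removal *Mapk3* goes from between 15.3 and 16.6 CPM at 0 h to between 21.5 and 25.1 CPM at 12 h, and *Map2k1* from between 131 and 139 to between 111 and 118 CPM.

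Over both substrates, 1 of the 7 genes passed at 2 h, *Braf*, against 6.05% of all genes tested, and DESeq2 called 1 as well. From 2 h to 12 h, 2 genes rose (*Mapk3* and *Map2k2*) and 2 fell (*Map2k1* and *Nras*), against 49.3% of all genes tested in either direction. On soft substrates 1 gene passed at 2 h (*Braf*, 0.26 ± 0.07, adjusted p = 0.036) against 1.96% of all genes, and it was lost with DESeq2 (adjusted p = 0.085), with all genes tested (adjusted p = 0.074) and without any 1 of the 4 soft libraries at 0 h and 2 h (adjusted p from 0.059 to 0.36). On stiff substrates none passed at 2 h in edgeR or in DESeq2, against 2.73% of all genes. At an unadjusted p under 0.05 there were 2, against 13.2% of all genes. At 12 h, 3 genes passed on soft substrates against 29.4% of all genes (*Mapk3* and *Braf* up, *Map2k1* down), and 5 on stiff substrates against 38.4% (*Mapk3*, *Braf*, *Araf* and *Map2k2* up, *Map2k1* down). The log2 fold change of *Map2k2* was 0.15 ± 0.06 on soft (adjusted p = 0.057) and 0.16 ± 0.06 on stiff substrates (adjusted p = 0.036), and it passed on soft substrates with no low-count filter (adjusted p = 0.039), with only the groups compared (adjusted p = 0.028) and without either stiff library at 2 h.

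The calls at 12 h within 1 substrate were less firm than those over both. On soft substrates *Braf* was lost with DESeq2 (adjusted p = 0.074) and without any 1 of the 4 libraries compared (adjusted p from 0.061 to 0.17) and *Map2k1* without soft 0 h replicate 2 (adjusted p = 0.057). On stiff substrates *Map2k2* was lost with DESeq2 (adjusted p = 0.068) and without any 1 of 3 libraries (0 h replicate 1, 0 h replicate 2 or 12 h replicate 1; adjusted p from 0.056 to 0.30) and *Araf* without any 1 of 3 (0 h replicate 1, 0 h replicate 2 or 12 h replicate 2; adjusted p from 0.060 to 0.16). With both substrates together, each of the 5 calls at 12 h held under all 18 alternatives, with an adjusted p of at most 0.048 for *Araf* and 0.029 for *Map2k2*.

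Soft and stiff substrates were compared directly at each time. None of the 7 genes passed at 0 h, where 0.0298% of all genes did, or at 2 h, where 0.134% did, and edgeR found none of them at an unadjusted p under 0.05 at these times, against 7.24% and 8.55% of all genes. DESeq2 called none either. At 12 h *Braf* stood lower on soft substrates, with a soft against stiff log2 ratio of -0.28 ± 0.07 (adjusted p = 0.037), 1 of 7 genes against 0.767% of all genes. The mean was 67.6 ± 0.574 CPM on soft and 82.0 ± 0.402 CPM on stiff substrates (SD, n = 2). This call was lost with DESeq2 (adjusted p = 0.075), with all genes tested (adjusted p = 0.072) and without any 1 of the 4 libraries compared (adjusted p from 0.21 to 0.26), while its size stayed between -0.29 and -0.27.

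The test of the difference in response between substrates called none of the 7 genes at 2 h, against 0.00745% of all genes, or at 12 h, against 0.0% of all genes. For *Braf* at 12 h that difference was -0.27 ± 0.09 with an adjusted p of 0.57, and it was the 1 gene with an unadjusted p under 0.05 (0.0066) at 12 h, where 6.69% of all genes had one, and none had one at 2 h, where 4.51% of all genes did. DESeq2 called none at either time. For *Mapk3* the difference at 12 h was -0.00 ± 0.15 and for *Map2k1* it was 0.02 ± 0.08, which the spread between libraries does not tell from 0 (adjusted p = 1.0 and 0.99).

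**Figure D2:**
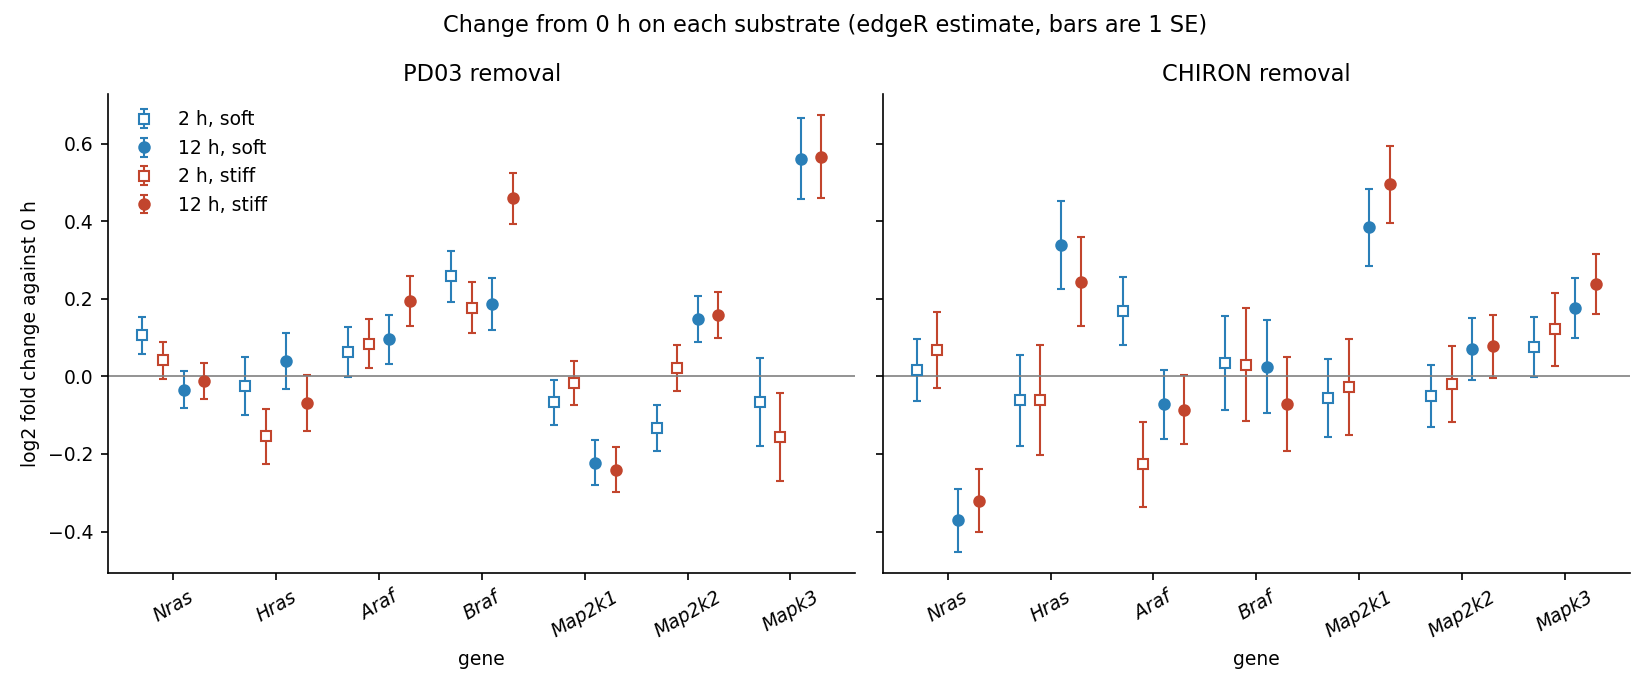
Log2 fold change against 0 h for each gene on soft (blue) and stiff (red) substrates at 2 h (open squares) and 12 h (filled circles) after removal of PD03 (left) or CHIRON (right), with bars of 1 SE. *Mapk3* at 12 h lies at 0.56 on soft and 0.57 on stiff substrates after PD03 removal, and *Map2k1* at 12 h lies below 0 after PD03 removal and above 0 after CHIRON removal on either substrate.

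After CHIRON removal PD03 stayed in the medium, and genes of the cascade changed as well. At 12 h with both substrates together *Map2k1*, *Hras* and *Mapk3* rose and *Nras* fell, 4 of 7 genes against 30.6% of the 14634 genes tested, and DESeq2 called 4 as well. At 2 h none passed in edgeR, against 0.827% of all genes, or in DESeq2, and none had an unadjusted p under 0.05, against 12.0% of all genes. From 2 h to 12 h, 3 passed against 24.9% of all genes (*Map2k1* and *Hras* up, *Nras* down). With the shallow library included, none of the 7 genes was called at 12 h, where 7.84% of the 14409 genes then tested were. The log2 fold changes of the 4 genes stayed close (0.45 for *Map2k1*, 0.30 for *Hras*, 0.22 for *Mapk3* and -0.34 for *Nras*), with adjusted p of 0.10, 0.13, 0.61 and 0.89.

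*Map2k1* was at 52.0 and 55.3 CPM on soft and 58.0 and 46.9 CPM on stiff substrates at 0 h, and at 69.2 and 70.8 CPM on soft and 71.5 and 76.4 CPM on stiff substrates at 12 h. At 2 h it was at 48.7 and 54.4 CPM on soft substrates and at 51.5 CPM in the single stiff library. Its 4 libraries at 12 h lay above the other 7, and the log2 fold change was 0.44 ± 0.07 (adjusted p = 0.00011). *Map2k2* ranged from 111 to 126 CPM over the 11 libraries and had no call (0.07 ± 0.06 at 12 h, adjusted p = 0.36).

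*Nras* was at 137 and 144 CPM on soft and 139 and 145 CPM on stiff substrates at 0 h, and at 115 and 102 CPM on soft and 118 and 110.4 CPM on stiff substrates at 12 h. At 2 h it was at 147 and 137 CPM on soft substrates and at 149 CPM on stiff substrates, so that all 4 libraries at 12 h lay below the other 7. It fell by 0.35 ± 0.06 on the log2 scale at 12 h (adjusted p = 0.00015). *Hras* ranged from 21.2 to 23.3 CPM at 0 h, from 21.2 to 21.4 CPM at 2 h and from 25.0 to 30.6 CPM at 12 h, and rose by 0.29 ± 0.08 on the log2 scale (adjusted p = 0.010). That call was lost without soft 0 h replicate 2 (adjusted p = 0.056) or stiff 12 h replicate 1 (adjusted p = 0.052).

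*Mapk3* was at 79.0 and 80.0 CPM on soft and 74.1 and 70.03 CPM on stiff substrates at 0 h, at 84.9 and 82.8 CPM on soft and 78.4 CPM on stiff substrates at 2 h, and at 87.0 and 92.9 CPM on soft and 82.6 and 87.4 CPM on stiff substrates at 12 h. Only the 12 h libraries were clear of those at 0 h, with a log2 rise of 0.21 ± 0.05 (adjusted p = 0.0076). The Raf genes did not pass at 12 h, with *Araf* at -0.08 ± 0.06 and *Braf* at -0.02 ± 0.09, and their libraries at 12 h overlapped those at 0 h. Over the 11 libraries *Araf* ranged from 66.5 to 88.8 CPM and *Braf* from 38.8 to 51.8 CPM.

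Within 1 substrate, *Map2k1*, *Hras* and *Nras* passed on soft substrates at 12 h against 17.8% of all genes, and *Map2k1*, *Mapk3* and *Nras* on stiff substrates against 16.8%. *Hras* on soft (adjusted p = 0.047) and *Mapk3* on stiff substrates (adjusted p = 0.044) were lost with DESeq2 (adjusted p = 0.070 and 0.056) and each without any 1 of 6 libraries (adjusted p from 0.054 to 0.28 for *Hras* and from 0.052 to 0.25 for *Mapk3*). These 2 calls were also lost with all genes tested (adjusted p = 0.071 and 0.053), with only the groups compared (0.0503 and 0.077), with the replicate number as a block (0.066 and 0.070) and with the tube digit as a block (0.084 and 0.15). With the tube digit as a block, *Nras* on stiff substrates was lost too (adjusted p = 0.067). Of the firmer calls, *Nras* on soft substrates was lost without soft 0 h replicate 2 (adjusted p = 0.053) or soft 12 h replicate 2 (adjusted p = 0.063), *Nras* on stiff substrates without stiff 0 h replicate 2 (adjusted p = 0.071) or stiff 12 h replicate 2 (adjusted p = 0.11), and *Map2k1* on soft substrates without soft 0 h replicate 1 (adjusted p = 0.082).

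At 2 h none passed on soft substrates, against 0.226% of all genes, or on stiff substrates with their single library, against 0.103%. None passed between soft and stiff at 0 h, 2 h or 12 h, nor in the difference in response at 2 h or 12 h, and in each of these 5 comparisons 0.0% of all genes did. At an unadjusted p under 0.05 there was 1 gene in soft against stiff at 2 h and in the difference in response at 2 h, *Araf* in both, against 5.73% and 3.09% of all genes at that level, and 0 in the others, while DESeq2 called none. The single stiff library at 2 h held *Araf* at 66.5 CPM, against 75.8 and 88.8 CPM in the soft libraries.

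The responses to the 2 removals were compared in 1 fit of 23 libraries, each response within its own experiment. At 12 h, 6 of the 7 genes differed, against 36.1% of the 14763 genes tested, and *Map2k2* did not pass (0.08 ± 0.07, adjusted p = 0.43). The response of *Map2k1* was lower after PD03 removal than after CHIRON removal by a log2 difference of -0.67 ± 0.08 (adjusted p = 2.0e-07), and that of *Hras* by -0.31 ± 0.09 (adjusted p = 0.0095). It was higher after PD03 removal for *Mapk3* (0.36 ± 0.08, adjusted p = 0.0013), *Braf* (0.34 ± 0.10, adjusted p = 0.0075), *Nras* (0.32 ± 0.06, adjusted p = 0.00027) and *Araf* (0.22 ± 0.08, adjusted p = 0.022).

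At 2 h none of the 7 genes differed between the removals in edgeR, against 3.5% of all genes, and 1 had an unadjusted p under 0.05, against 16.1% of all genes, while DESeq2 was not run on this comparison. *Map2k1* was the only gene of the 7 that passed in opposite directions at 12 h, and *Mapk3* the only one that passed upwards after both removals. With the shallow library in the fit, the 12 h difference was called for *Map2k1* and *Braf* alone, 2 of 7 genes against 17.5% of the 14566 genes then tested.

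The balance within each pair of paralogues was taken as 1 gene's share of their summed RPKM in each library and compared with 0 h by exact permutation tests (two-sided, 12 tests). The *Map2k2* share of the MEK pair was 36.7% and 35.1% on soft and 33.9% and 36.0% on stiff substrates at 0 h of PD03 removal, and 41.7% and 42.3% on soft and 41.4% and 41.4% on stiff substrates at 12 h. The mean went from 35.4% ± 1.22 to 41.7% ± 0.388 (SD, n = 4 each) without overlap, at an exact permutation p of 0.029, the smallest that 4 against 4 libraries allow, and 0.086 after Benjamini-Hochberg adjustment. In CHIRON removal the same share went the other way, from 57.2% ± 1.95 to 50.8% ± 1.11 (n = 4 each), with the same exact permutation p values. At 2 h it was 35.2% ± 1.07 (n = 4) and 57.2% ± 1.30 (n = 3), and overlapped 0 h in both experiments.

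The *Hras* share of the Ras pair was 18.4% ± 1.25 at 0 h and 26.0% ± 2.66 at 12 h of CHIRON removal (n = 4 each, no overlap, exact permutation p = 0.029, adjusted 0.086). In PD03 removal it was 23.4% ± 1.03 at 0 h, 21.4% ± 0.604 at 2 h, without overlap and with the same p values, and 23.4% ± 1.40 at 12 h. The *Braf* share of the Raf pair was 28.2% ± 0.746 at 0 h and 30.9% ± 2.098 at 12 h of PD03 removal (exact permutation p = 0.057, adjusted 0.14) and stayed between 19.7% and 25.7% in CHIRON removal. No share passed after adjustment over the 12 tests. With a smallest exact permutation p of 0.029 for 4 against 4 libraries, a single share without overlap could not have passed. The adjusted test therefore cannot decide whether a share shifted.

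**Figure D3:**
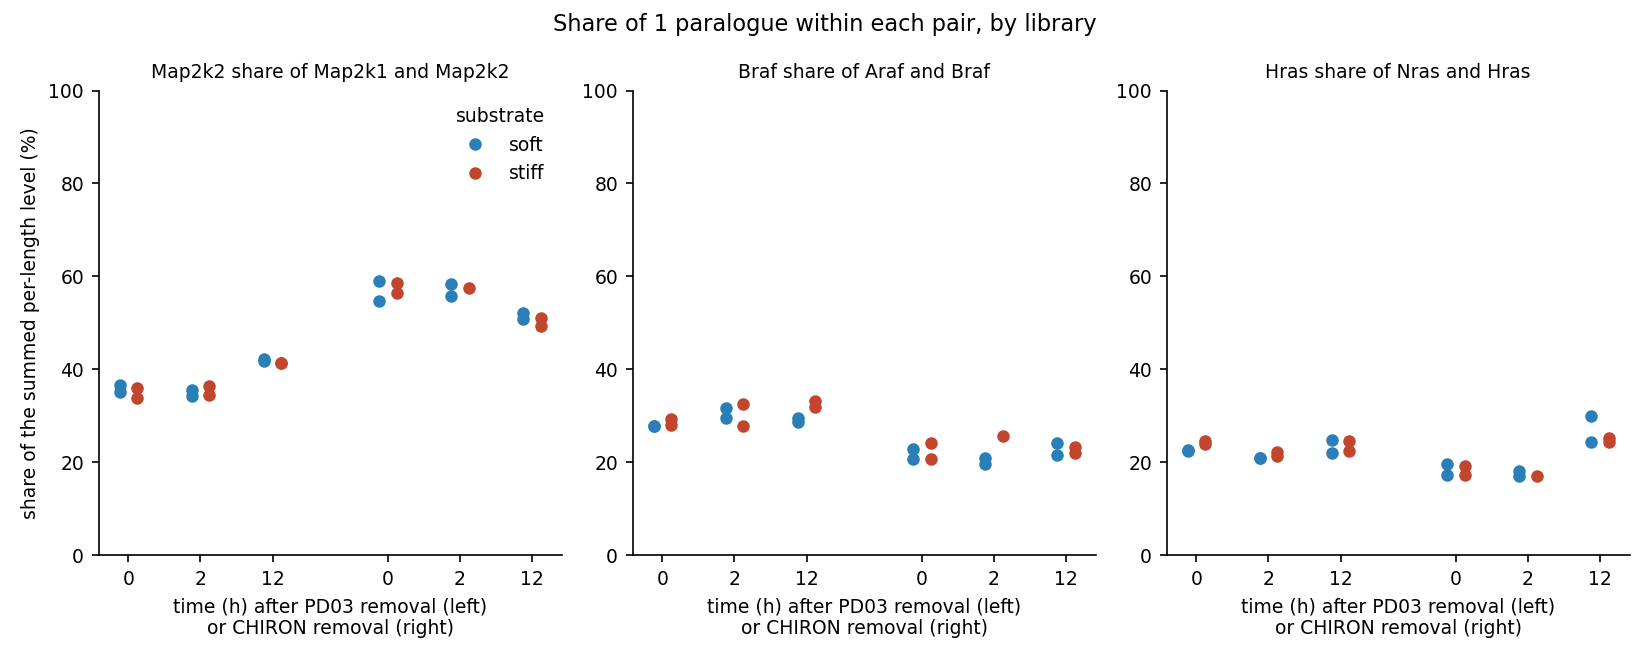
Share of *Map2k2*, *Braf* and *Hras* in the summed per-length level of their pair (%, axis from 0 to 100) in each library at 0 h, 2 h and 12 h after removal of PD03 (left in each panel) or CHIRON (right), blue on soft and red on stiff substrates. The *Map2k2* share goes from a mean of 35.4% to 41.7% in one experiment and from a mean of 57.2% to 50.8% in the other.

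Levels of 12 genes listed as transcriptional feedback of ERK were read in the same libraries. Whether they followed ERK activity was not tested, and PD03 stayed in the medium after CHIRON removal. *Spry4*, an inhibitor of receptor signalling to Ras, went from 23.8 ± 4.59 CPM at 0 h to 207 ± 35.0 CPM at 2 h and 122 ± 20.6 CPM at 12 h of PD03 removal (SD, n = 4 each), log2 fold changes of 3.13 ± 0.06 and 2.36 ± 0.06 (adjusted p = 2.4e-26 and 8.0e-23). *Dusp6*, a phosphatase of ERK, went from 37.2 ± 3.00 to 153 ± 27.4 and 88.0 ± 13.8 CPM, changes of 2.03 ± 0.04 and 1.23 ± 0.04 (adjusted p = 2.8e-25 and 2.1e-19). Of the 12 genes, 8 rose and none fell at 2 h, and 10 rose and 1 fell at 12 h, with medians of 0.51 and 0.68 on the log2 scale, against the 6.05% and 48.9% called of all genes. The largest change among the 7 cascade genes at 2 h was 0.22, that of *Braf*.

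After CHIRON removal 2 of the feedback genes rose and 7 fell at 12 h (median -0.31), against 30.6% of all genes called, with *Spry4* going from 44.8 ± 4.88 to 8.66 ± 2.31 CPM (n = 4 each, -2.39 ± 0.14, adjusted p = 3.7e-10) and *Dusp6* from 17.2 ± 0.913 to 12.7 ± 2.62 CPM (-0.46 ± 0.09, adjusted p = 0.00062). At 2 h none rose and 2 fell, against 0.827%. In these libraries the *Map2k1* change had the opposite sign to that of *Spry4* at 12 h after either removal, which is a description of 2 genes and was not tested.

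Upstream and beside the cascade, calls at 12 h of PD03 removal are to be read against the 48.9% called of all genes tested. They went in both directions in every list but that of the GTPase-activating proteins of Ras. Of 9 tested GTPase-activating proteins of Ras, 6 rose and none fell at 12 h of PD03 removal (median log2 fold change 0.23). At 12 h of CHIRON removal 1 of 10 rose and 3 fell (median 0.07), against 30.6% of all genes. *Dab2ip*, one of them, went from 165 ± 5.08 to 206 ± 4.05 CPM after PD03 removal (0.32 ± 0.03, adjusted p = 7.6e-09) and from 179 ± 6.01 to 138 ± 7.30 CPM after CHIRON removal (-0.38 ± 0.05, adjusted p = 2.2e-05), with n = 4 in each group. Of 11 adaptors and exchange factors that act between receptors and Ras, 5 rose and 2 fell, with *Gab1*, a docking protein, at 0.20 ± 0.03 (adjusted p = 1.5e-05).

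Of 12 other members of the Ras family, 2 rose and 5 fell at 12 h of PD03 removal. *Eras*, a constitutively active Ras protein of embryonic stem cells, rose after both removals, from 11.3 ± 1.37 to 26.3 ± 2.26 CPM without PD03 (1.22 ± 0.08, adjusted p = 3.5e-13) and from 5.14 ± 1.30 to 19.3 ± 3.04 CPM without CHIRON (1.92 ± 0.15, adjusted p = 2.4e-08; n = 4 in each group). Its log2 fold changes were larger than any among the 7 cascade genes in the same comparisons. Of 17 scaffolds and modulators, 3 rose and 8 fell, with *Erf*, a transcriptional repressor that ERK phosphorylates, at 0.57 ± 0.03 (adjusted p = 8.9e-14).

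Among kinases of related cascades, 4 of 13 tested rose and 2 fell, with *Mapk7*, which encodes ERK5, at 0.47 ± 0.05 (adjusted p = 6.0e-09) after PD03 removal and at -0.01 ± 0.06 after CHIRON removal. Of 8 MAP3K genes 3 rose and 1 fell, with *Map3k11* at 0.32 ± 0.06 (adjusted p = 7.5e-05). Of 8 kinases that ERK activates 2 rose and 2 fell, with *Mknk2*, a kinase of the translation factor eIF4E, at 0.54 ± 0.05 (adjusted p = 4.8e-10). After CHIRON removal at 12 h these lists had 1 up and 1 down of 15, 1 up and 3 down of 8, and 2 up and 2 down of 8, while the Ras family had 4 up and 0 down of 12, the adaptors 2 and 2 of 14 and the scaffolds 4 and 1 of 17, against 30.6% of all genes.

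**Figure D4:**
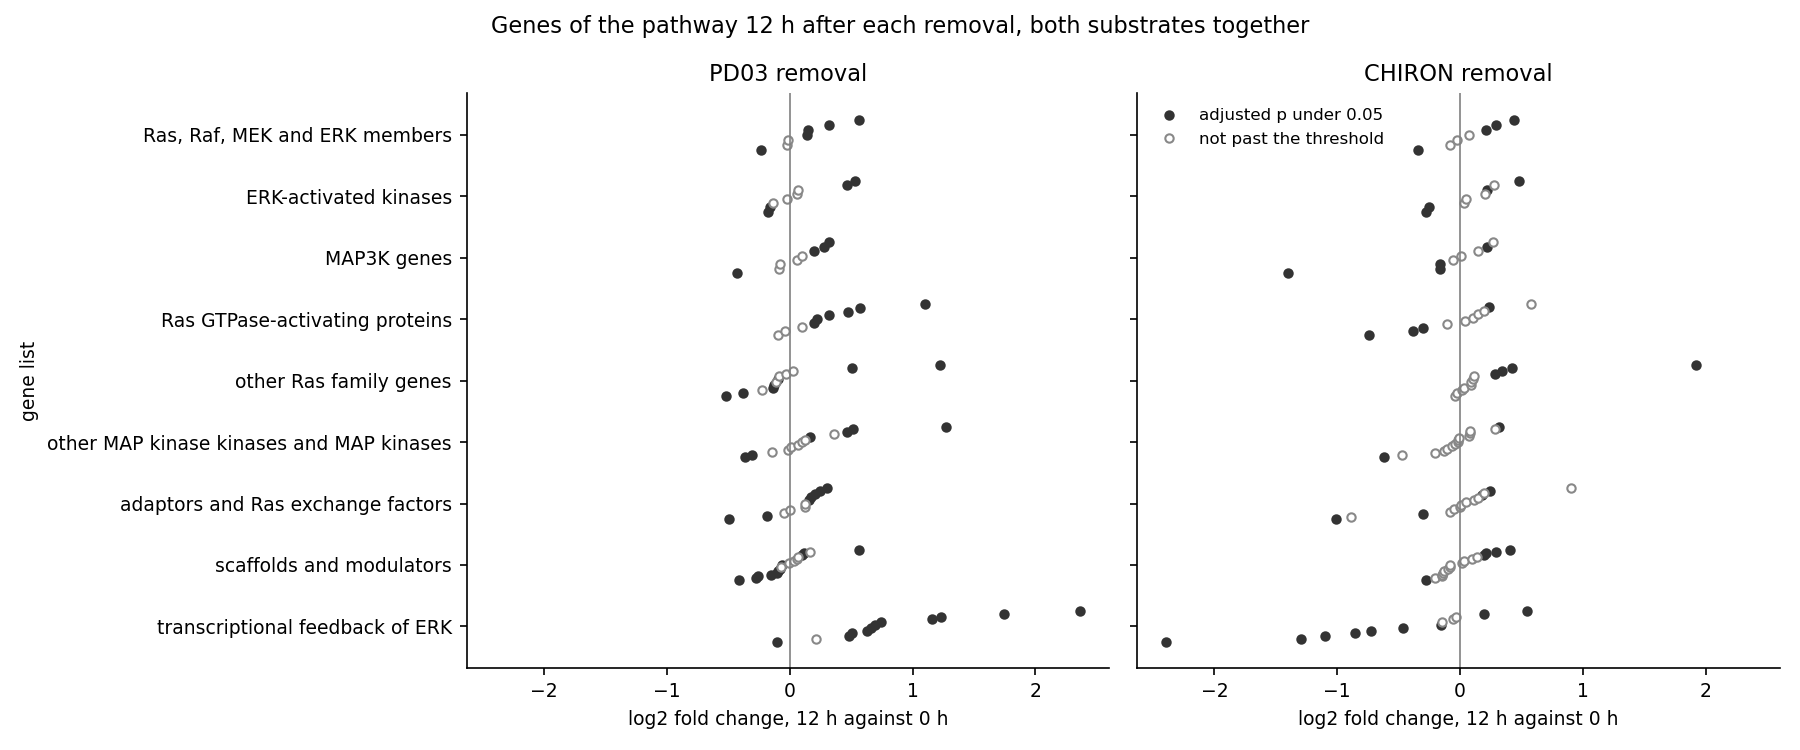
Log2 fold change at 12 h against 0 h with both substrates together (x axis) for the 7 cascade genes and 8 lists of related genes (rows) after removal of PD03 (left) or CHIRON (right). Filled points are genes with an adjusted p under 0.05 and open points the other genes tested. The feedback genes reach 2.36 after PD03 removal and -2.39 after CHIRON removal (*Spry4*), whereas the 7 cascade genes stay between -0.35 and 0.56.

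Across the 12 libraries of PD03 removal, the genes whose log2 CPM followed most closely each cascade gene called at 12 h were listed as a description, since all points share libraries and depth. For *Map2k1* they were *Hist1h2bc*, *Hist1h2bq* and *Hist1h2br* (Pearson r = 0.97, 0.96 and 0.96), which encode histone H2B and belong to a family of near-identical copies whose reads may be split between genes. For *Mapk3* they were *Trim8*, *Recql4* and *Adgrl1* (r = 0.98 each), and for *Braf* they were *Nufip2*, *Lgr4* and *Atrx* (r = 0.94, 0.94 and 0.93). For *Map2k2* they were *Mkl2*, *Tfeb* and *Rfx2* (r = 0.93, 0.93 and 0.92), and for *Araf* they were *Cdk10*, *Aaas* and *Rasa2* (r = 0.93, 0.91 and 0.91), the last a GTPase-activating protein of Ras.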

How the data were processed

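RNA of 24 libraries was sequenced after rRNA depletion. Per the labels and the study's methods, the authors trimmed reads with Trim Galore, aligned them to GRCm38 with TopHat 2.1.0, assigned them to Ensembl genes with featureCounts 1.5.0 and deposited raw counts per gene. The strand setting was not given in the sources used here.

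Here, 23 empty lines and 12 columns of other samples were left out of the table of PD03 removal, in which 15 gene names were bare numbers. Genes matched to GENCODE M21 were 34889 (19321 protein-coding) and 48526 (21814). Protein-coding counts were kept by filterByExpr (a count of 10, a total of 15), scaled by TMM in edgeR 4.0.16 and fitted by quasi-likelihood with all 6 groups of an experiment (12 and 11 libraries; 13424 and 14634 genes), or all 12 groups jointly (14763 genes). P-values were adjusted by Benjamini-Hochberg with a threshold of 0.05, and an SE is the log2 fold change divided by the square root of F. The biological coefficient of variation was 0.0386, 0.0797 and 0.0605. Depth was 16222196 to 26442153 and 19393787 to 31111260 counts per library. CPM are TMM-scaled, and RPKM use the merged exons. Replicates were separate libraries by their counts, since chi-square over degrees of freedom between replicates was 2.18 to 3.12 and 6.22 to 18.5.

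Alternatives were DESeq2 1.42.0, its size factors, no filter, all genes, only the groups compared, blocks by replicate number or tube digit, the shallow library included, and leaving out each library. The fits were tested on simulated data. Named genes were the 7 cascade genes, the gene of each list with the smallest adjusted p at 12 h of PD03 removal, *Dusp6*, *Spry4* and the 3 genes most like each cascade gene called at 12 h of PD03 removal among those with a mean of at least 10 CPM. The members and lists were chosen with earlier results of these data known. Analyses used R 4.3.3, Python 3.11.15, pandas 2.3.3, scipy 1.17.1 and matplotlib 3.10.9.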

Additional observations from a re-analysis of the deposited data

Results flagged for a closer look

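The 12 h response of 6 of the 7 cascade genes differed between the removals in the joint fit of 23 libraries. Of all 14763 genes tested, 36.1% did. The log2 difference, PD03 removal minus CHIRON removal, was -0.67 for *Map2k1*, -0.31 for *Hras*, 0.22 for *Araf*, 0.32 for *Nras*, 0.34 for *Braf* and 0.36 for *Mapk3*. These experiments were separate sets of libraries and their 0 h levels differed, by 5.57-fold for *Mapk3*. Whether a gene's starting level bears on its response was not tested. With the library of 171333 counts in the fit, the difference in response kept its direction for all 6 genes. It was called for *Map2k1* and *Braf*, against 17.5% of all genes then tested.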

How the results depend on the processing

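Of the 7 genes, the 5 calls at 12 h of PD03 removal over both substrates held under all 18 alternatives. Calls within 1 substrate and between substrates rest on 2 libraries a group, and several depended on 1 of them. With DESeq2 and with all genes tested, 0 of the 7 genes passed on soft substrates at 2 h of PD03 removal and 0 between soft and stiff at 12 h. Over all genes, 179 of 13424 with DESeq2 and 226 of 18493 with all genes tested passed on soft substrates at 2 h. Between soft and stiff at 12 h, 73 and 77 did. With all 12 libraries of CHIRON removal 0 passed at 12 h on soft, on stiff or on both substrates or from 2 h to 12 h, and with all 24 libraries 2 differed between the removals at 12 h in place of 6. The calls over all genes dropped as well, to 3.17% on soft, 3.2% on stiff and 7.84% on both substrates, 5.79% from 2 h to 12 h and 17.5% between the removals. With the tube digit as a block 1 passed at 12 h on stiff substrates of CHIRON removal in place of 3. The share of all genes called there went from 16.8% to 10.5%. The cause was not tested.

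Leaving out each library in turn left at most 1 library in its group, so numbers of genes called are not given for these fits. In PD03 removal the number of cascade genes called changed on soft substrates at 2 h and on either substrate at 12 h. It also changed between substrates at 12 h, and on either substrate at 12 h of CHIRON removal. The number of all genes called changed in the same comparisons, so these changes cannot be read as particular to the cascade genes. Uncalled log2 fold changes near 0 changed sign. In PD03 removal these were *Hras* at 12 h (-0.051 to 0.022) and *Map2k1* at 2 h (-0.089 to 0.0041), and between soft and stiff at 12 h *Nras* (-0.067 to 0.017), *Hras* (-0.11 to 0.036), *Araf* (-0.082 to 0.0026), *Map2k1* (-0.046 to 0.048, and 5.2e-05 with only the groups compared), *Map2k2* (-0.013 to 0.081) and *Mapk3* (-0.062 to 0.17). In CHIRON removal it was *Braf* at 12 h (-0.11 to 0.060). The change in the *Braf* share ran from 1.41 to 3.00 percentage points at 2 h and 1.84 to 3.34 at 12 h of PD03 removal and from -1.77 to 1.24 at 2 h of CHIRON removal, and that in the *Hras* share from 6.32 to 8.18 at 12 h of CHIRON removal.

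Libraries with the same replicate number did not deviate together (mean correlation of deviations -0.0028 over 15 pairs of groups in PD03 removal, from -0.052 to 0.11, and -0.020 over 10 pairs in CHIRON removal, from -0.11 to 0.071). With the number as a replicate block, 5 genes passed at 12 h of PD03 removal and 4 at 12 h of CHIRON removal over both substrates, as without it, 2 in place of 3 on each substrate of CHIRON removal (*Hras* lost on soft and *Mapk3* on stiff), and 6 differed between the removals at 12 h. Of all genes tested, 49.1% passed with this block at 12 h of PD03 removal and 28.5% at 12 h of CHIRON removal. On single substrates at 12 h of CHIRON removal 15.6% did on soft and 14.7% on stiff. Between the removals 35.0% differed at 12 h. The block moved the number of all genes called at 2 h of CHIRON removal over both substrates from 121 to 67. With the tube digit as a block it was 23, and from 2 h to 12 h it was 1984 in place of 3641. Whether libraries with the same tube digit deviate together was not tested.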
